A study of Homo sapiens with 2 samples.

Results

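Genes that drive or restrain the cell cycle are described here, 9 in number: CDK6, CDK2, CDKN1A, RBL1, GADD45A, CDK1, KIF11, HMMR and UBE2C. They were chosen by name from an earlier look at the FPKM values (fragments scaled to transcript length and library size) of the same 2 libraries, so every ratio below is a description and none was tested. They are 9 of the 836 gene loci that the authors listed. RNA came from MiaPaCa, an established human pancreatic cancer cell line. The Scr library came from cells transfected with the pGFP-V-RS-Scr control plasmid, and the shMyb library from cells transfected with pGFP-V-RS-shMYB, which expresses a short hairpin RNA against the transcription factor MYB. Both were stable pooled populations kept under puromycin. The genotype label calls the Scr cells "MYB-overexpression" and the shMyb cells "MYB-silenced", although the protocols describe no MYB expression plasmid.

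Progress through G1 depends on cyclin-dependent kinases. CDK6 with a D-type cyclin and then CDK2 with cyclin E phosphorylate the pocket proteins (RB1, RBL1, RBL2), which releases E2F transcription factors and lets S phase genes be transcribed. CDKN1A (p21) inhibits these kinases, and GADD45A, a stress-induced protein, interferes with CDK1 at the entry into mitosis. CDK1 with cyclin B starts mitosis, the kinesin KIF11 pushes the spindle poles apart, HMMR helps to assemble and orient the spindle, and UBE2C hands ubiquitin to the anaphase-promoting complex (APC/C), which then marks cyclin B for destruction. Many mitotic genes are transcribed through a CCAAT box and a cell cycle homology region (CHR) near the start site, at which the DREAM complex (with RBL1 or RBL2) represses and a MuvB complex with the MYB relative MYBL2 activates. Pancreatic cancers commonly lose the CDK inhibitor CDKN2A.

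With 1 library per group, no replicate error and no test can be given for any value, and p-values quoted below come from the authors' deposited table, are unadjusted and compare 2 libraries. The deposited FPKM carry no counts, so the depth is unknown. All 836 loci have a deposited p-value of at most 0.04995, and genes outside the list were not analysed here. MYB was at 981 FPKM in Scr and 0.554 FPKM in shMyb, 0.0564% of the Scr level, which checks the direction of the labels only. Whether the Scr level reflects the "MYB-overexpression" label was not tested. Of 26 marker genes in 6 lists (epithelial, mesenchymal, acinar, fibroblast, blood and endothelial), 1 was listed, the fibroblast list's DES, at 1.97 FPKM in Scr and 0.0780 FPKM in shMyb, so neither the labelled cell type nor an admixture of other cells could be checked from these files. In bulk RNA, fewer cells in a phase of the cycle and less RNA per cell cannot be told apart.

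The sequences of the start regions are shown first, because the matched promoters of the mitotic genes held CHR and CCAAT letters that those of the G1 genes lacked, while E2F and MYB letters were found in both. RefSeq promoters (GRCh38.p14, 250 bases before to 50 after each transcript start) were matched by symbol for 6 of the 9 genes, with 8 promoters: CDK6 and CDK1 have 2 start sites each. The promoters of CDK2, GADD45A and UBE2C were not among those matched. Capitals mark motif matches, and positions count back from the first transcribed base. In the first, from chr10:60778131-60778330 (plus strand, positions -200 to -1 of the first CDK1 start), the capitals are a CHR, a CCAAT box and, on the opposite strand, a MYB site. The KIF11 stretch is chr10:92593030-92593129 (plus strand, positions -100 to -1), with a CCAAT box and a CHR, both on the opposite strand. The RBL1 stretch is chr20:37095998-37096097 (minus strand, positions -100 to -1), with 2 E2F sites.
CDK1, first start: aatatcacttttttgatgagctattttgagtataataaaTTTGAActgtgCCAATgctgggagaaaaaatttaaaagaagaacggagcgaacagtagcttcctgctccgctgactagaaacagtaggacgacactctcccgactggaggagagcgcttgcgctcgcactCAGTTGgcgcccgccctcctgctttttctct
KIF11: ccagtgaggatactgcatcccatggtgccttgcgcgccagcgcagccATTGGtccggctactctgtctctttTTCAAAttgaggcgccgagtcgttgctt
RBL1: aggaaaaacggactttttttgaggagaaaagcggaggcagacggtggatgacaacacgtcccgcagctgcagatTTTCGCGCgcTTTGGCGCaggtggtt

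Windows of 30 bases are shown for the other 3, since they overlap untranslated regions that GENCODE annotates. The second CDK1 start, 147 bases downstream of the first, has a CHR at -13 to -8 (chr10:60778454-60778483, plus strand). HMMR has 2 adjoining CHR at -28 to -17 (chr5:163460595-163460624, plus strand). CDKN1A has a MYB site on the opposite strand at -37 to -32 (chr6:36678664-36678693, plus strand).
CDK1, second start: agcgcggtgagTTTGAAactgctcgcactt
HMMR: gtggggagaTTTGAATTTGAAaccggtagg
CDKN1A: ggcccgggcggggCGGTTGtatatcagggc

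The motifs were searched on both strands as exact letters. A CHR was TTTGAA or TTCGAA and a CCAAT box was CCAAT. An E2F site was TTTGGCGC, TTTCGCGC, TTTCCCGC or TTTGCCGC, and a MYB site was CAACNG or TAACNG. Of all 35116 promoters of this length, 16.4% held a CHR, 34.6% a CCAAT box, 6.38% both, 3.31% an E2F site and 46.2% a MYB site. All 4 promoters of the mitotic genes CDK1, KIF11 and HMMR held both a CHR and a CCAAT box, and none of the 4 promoters of CDK6, CDKN1A and RBL1 held either. HMMR held 5 CCAAT matches, 2 of which share bases, and the second CDK1 promoter held 2. KIF11 has its CCAAT match at -53 to -49 and its CHR at -28 to -23. E2F sites were found in RBL1, at -26 to -19 and at -16 to -9, and in CDK1, where both start regions contain the same match. MYB sites were found in CDKN1A (1 match), HMMR (2 matches) and CDK1 (1 match, which both start regions contain), a motif that nearly as many promoters hold as lack it. Neither CDK6 promoter held any of these letters. A match is a description of the letters and not a bound site.

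**Figure D1:**
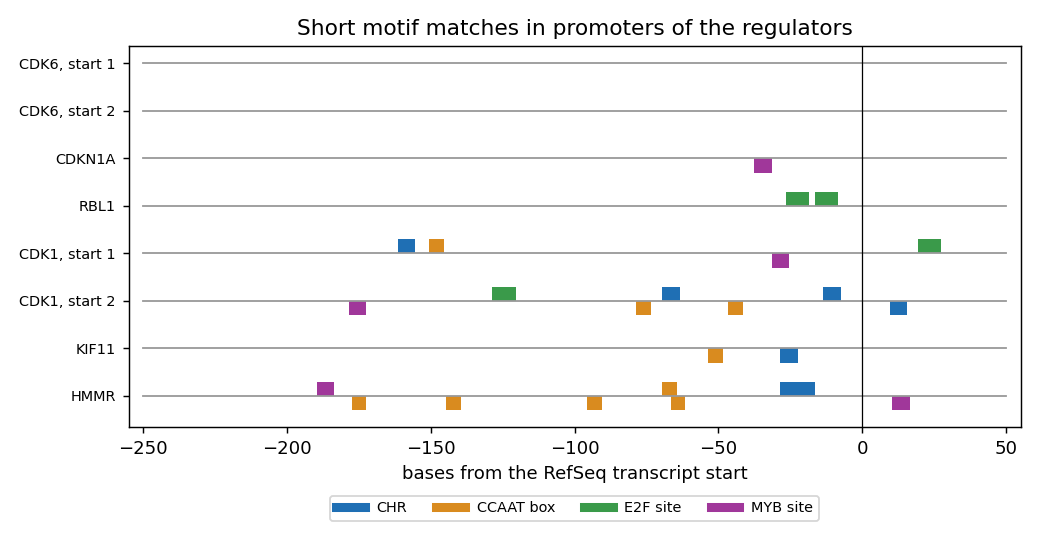
Motif matches in the 8 RefSeq promoters of 6 regulators, by distance in bases from the transcript start; boxes above a line are on the gene's strand and boxes below it on the opposite strand. CHR and CCAAT matches appear in CDK1, KIF11 and HMMR, E2F matches in RBL1 and CDK1, and none of the 4 motifs in CDK6.

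The kinases of G1 were lower in shMyb, and CDK6 was lower by more than CDK2. CDK6 (chromosome 7, 92234235 to 92465941, hg19) was at 21.2 FPKM in Scr and 5.46 FPKM in shMyb, so 25.7% of the Scr level was left. Its log2 ratio, computed here and below with 0.5 FPKM added to both values, was -1.87 (p = 5e-05 in the authors' deposited table). CDK2 (chromosome 12, 56360556 to 56366568) was at 30.5 FPKM in Scr and 16.4 FPKM in shMyb. With 53.9% of its Scr level left, its log2 ratio was -0.87 (p = 0.02575 in the authors' deposited table). CDK6 thus stood at 0.696 of the CDK2 level in Scr and at 0.332 of it in shMyb, both as ratios of FPKM, which are scaled to transcript length. In GENCODE, the span of PMEL, a pigment cell gene, overlaps that of CDK2 on the opposite strand. With no strand setting stated, reads from any bases that both transcripts share cannot be told apart. Whether their exons overlap was not examined.

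The brakes of G1 were lower too. CDKN1A (chromosome 6, 36644237 to 36655116) was the most weakly expressed of the 9 genes, at 8.40 FPKM in Scr and 2.33 FPKM in shMyb. Its log2 ratio was -1.65 (p = 0.00175 in the authors' deposited table), and 27.8% of the Scr level was left. RBL1 (chromosome 20, 35624835 to 35724410), the pocket protein p107 that holds E2F factors back, was at 13.0 FPKM in Scr and 5.68 FPKM in shMyb. Its log2 ratio was -1.13 (p = 0.0031 in the authors' deposited table). The lower brakes and the lower kinases did not keep a single proportion. CDKN1A stood at 0.396 of the CDK6 level in Scr and 0.427 in shMyb, while against CDK2 it stood at 0.275 in Scr and 0.142 in shMyb. RBL1 was at 0.612 of the CDK6 level in Scr and at 1.04 of it in shMyb. Against CDK2, RBL1 stood at 0.426 in Scr and 0.345 in shMyb. These are ratios of RNA levels with no error, and say nothing of protein.

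GADD45A (chromosome 1, 68150860 to 68154021), the stress-induced brake, was at 68.5 FPKM in Scr and 25.8 FPKM in shMyb. Its log2 ratio was -1.39 (p = 0.00065 in the authors' deposited table), and 37.6% of the Scr level was left. It stood at 0.904 of the CDK1 level in Scr and at 0.665 of it in shMyb.

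The 4 mitotic genes lay close together in log2 ratio, although the list holds no lower locus above the level filter nearer to 0 than -0.71. CDK1 (chromosome 10, 62538089 to 62554610), the kinase that starts mitosis, was at 75.8 FPKM in Scr and 38.8 FPKM in shMyb, a log2 ratio of -0.96. KIF11 (chromosome 10, 94352825 to 94415152), the kinesin that separates the spindle poles, was at 52.7 FPKM in Scr and 27.7 FPKM in shMyb, a log2 ratio of -0.91. HMMR (chromosome 5, 162887517 to 162918953), the spindle and hyaluronan-binding protein, was at 79.0 FPKM in Scr and 44.5 FPKM in shMyb, a log2 ratio of -0.82. Between 51.1% and 56.7% of the Scr level was left for these genes and for UBE2C. UBE2C (chromosome 20, 44441255 to 44445596), the APC/C partner enzyme, was the most strongly expressed of the 9, at 201 FPKM in Scr and 114 FPKM in shMyb, a log2 ratio of -0.82. The authors' deposited table gives p-values of 0.0111 for CDK1, 0.01295 for KIF11, 0.024 for HMMR and 0.02845 for UBE2C. Relative to CDK1, the FPKM of KIF11 was 0.696 in Scr and 0.716 in shMyb, that of HMMR 1.04 and 1.15, and that of UBE2C 2.65 and 2.94. The order of the 4 levels, UBE2C over HMMR over CDK1 over KIF11, was therefore the same in both libraries. Over all 9 genes the order in Scr was UBE2C, HMMR, CDK1, GADD45A, KIF11, CDK2, CDK6, RBL1 and CDKN1A from high to low. In shMyb it differed in 2 neighbouring pairs, with KIF11 above GADD45A and RBL1 above CDK6. Without replicates no difference between neighbours in these orders can be told from error. The span of HMMR-AS1 overlaps that of HMMR on the opposite strand in GENCODE, and reads from any shared exon bases cannot be told apart without strand. The same limit holds for CDK6, CDKN1A, RBL1 and KIF11, each of which a noncoding gene or a pseudogene on the opposite strand overlaps.

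**Figure D2:**
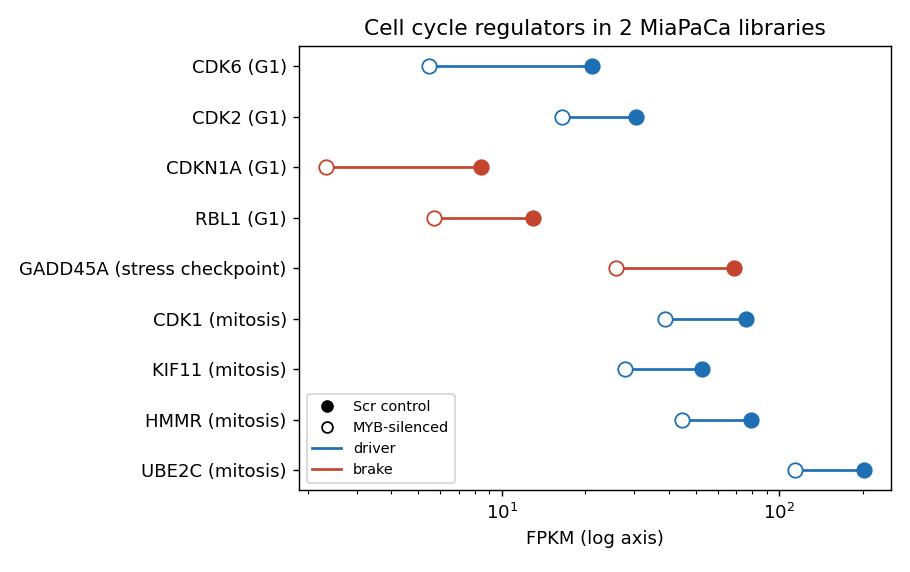
FPKM of the 9 regulators on a log axis, with 1 Scr library (filled) and 1 shMyb library (open) for each gene and no error bars because there are no replicates. Every gene is lower in the MYB-silenced library, and the lines are longest for CDK6 and CDKN1A and shortest for HMMR and UBE2C.

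Set side by side, drivers and brakes were both lower. The 6 drivers (CDK6, CDK2, CDK1, KIF11, HMMR and UBE2C) had a median log2 ratio of -0.89, from -1.87 to -0.82. The 3 brakes (CDKN1A, RBL1 and GADD45A) had a median of -1.39, from -1.65 to -1.13. CDK6 thus lay below all 3 brakes, and the other 5 drivers lay above all 3. All 4 mitotic genes are drivers and no brake is mitotic, so role and phase cannot be told apart here. Within G1, the drivers CDK6 and CDK2 were at -1.87 and -0.87, and the brakes CDKN1A and RBL1 at -1.65 and -1.13. Summed over each group, the drivers' FPKM were 461 in Scr and 247 in shMyb, with 53.6% left, and the brakes' FPKM were 89.9 in Scr and 33.8 in shMyb, with 37.6% left. UBE2C alone holds much of the drivers' sum and GADD45A most of the brakes' sum.

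By phase, the 4 G1 genes (CDK6, CDK2, CDKN1A and RBL1) had a median log2 ratio of -1.39 and the 4 mitotic genes a median of -0.87. CDK2, at -0.87, was the G1 gene that lay within the range of the mitotic genes, which ran from -0.96 to -0.82. The G1 genes were also the less expressed, at 8.40 to 30.5 FPKM in Scr against 52.7 to 201 FPKM for the mitotic genes. Of lower loci with a Scr level in the G1 range (197), 37.1% were at least 2-fold lower, and of those in the mitotic range (99) 30.3% were, with medians of -0.92 and -0.88. The part of expression level in the difference between phases was not tested. GADD45A had a Scr level among those of the mitotic genes and a log2 ratio of -1.39.

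Against the rest of the list, being lower was common. All 9 regulators were lower in shMyb, as were 62.4% of the 797 loci whose mean reached 1 FPKM (497 loci, against 300 higher). Of all 797 loci 24.7% were at least 2-fold lower (a log2 ratio of -1 or less), 197 loci that are all among the 497 lower ones. Of the 9 regulators 4 were, CDK6, CDKN1A, GADD45A and RBL1. The same 4 had a p-value of at most 0.01 in the authors' deposited table, a bound that 19.9% of the 836 loci met in the lower direction. Nothing is read from these counts, since the genes were chosen with their ratios known. Ranked from the lowest ratio, CDK6 was at rank 30 of 797 and CDKN1A at rank 43, whereas HMMR was at rank 370 and UBE2C at rank 373. The 497 lower loci had a median log2 ratio of -0.93, and the one nearest to 0 was at -0.71. CDK1 and KIF11 thus lay near the middle of the lower loci, and HMMR and UBE2C in the part nearer to 0. The median of all 797 loci was -0.80. Relative to it the 9 ratios ran from -1.06 for CDK6 to -0.02 for HMMR and UBE2C, and centring on it changed the split of at least 2-fold differences from 197 lower and 159 higher loci to 31 lower and 300 higher.

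**Figure D3:**
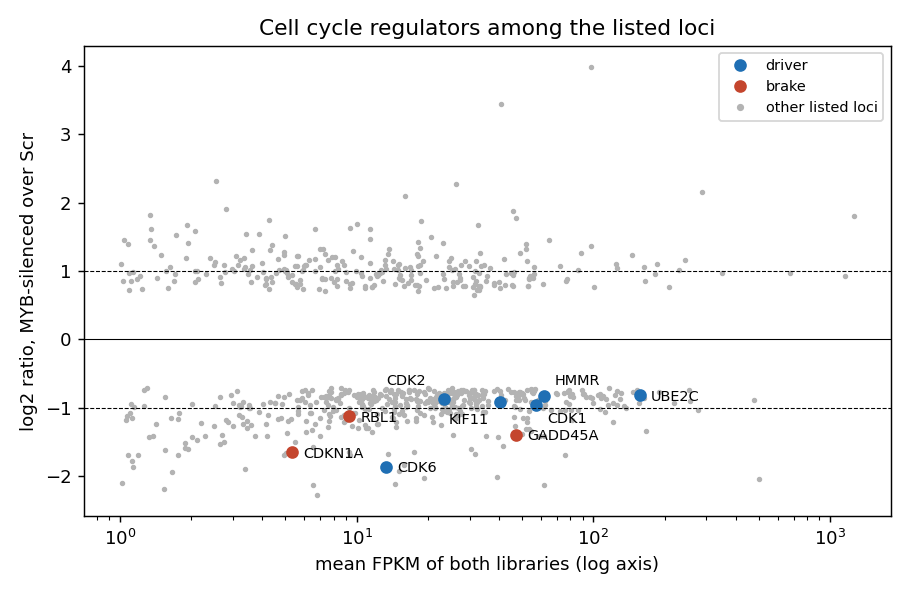
Log2 ratio of shMyb over Scr against the mean FPKM of both libraries (log axis) for listed loci whose mean reached 1 FPKM and that were above 0 in both libraries, without MYB; dashed lines mark 2-fold differences. CDK6, CDKN1A, GADD45A and RBL1 lie below the lower dashed line, and CDK2, CDK1, KIF11, HMMR and UBE2C lie in the dense band just above it.

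Direction in the list moved with the GC content of transcripts (medians over GENCODE release 29 transcripts of a gene, found for 746 of the 797 loci). In 5 bins of GC content, the share of lower loci was 92.7%, 87.9%, 71.1%, 50.3% and 10.7% from the lowest to the highest bin. The mitotic genes CDK1 (35.6%), HMMR (38.0%) and KIF11 (38.3%) were in the lowest bin, together with RBL1 (40.7%). CDK6 (48.2%), UBE2C (51.6%) and CDK2 (51.6%) were in the middle bin. CDKN1A (59.4%) and GADD45A (57.0%) were in the next bin, where lower and higher loci were about as many. The share of loci at least 2-fold lower varied less over the first 4 bins, from 26.8% to 31.3%, and was 6.04% in the fifth. What part GC content has in the ratios of the 9 genes was not tested.

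**Figure D4:**
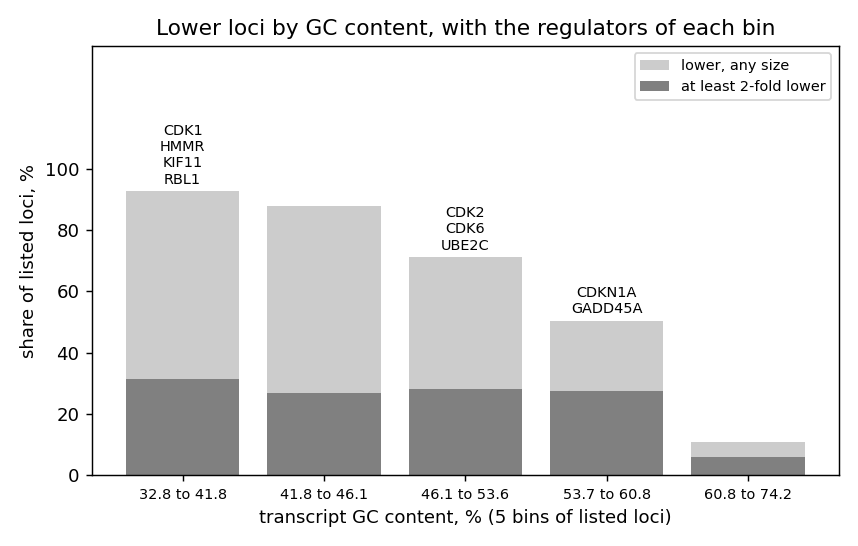
Share of listed loci that were lower in shMyb (light) and at least 2-fold lower (dark) in 5 bins of transcript GC content, with the regulators that fall in each bin named above it. The light bars drop from 92.7% to 10.7%, and the 9 regulators are spread over 3 of the bins, with none in the highest.

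The other genes of the pathway were taken from 10 lists with 171 genes, of which 39 were listed and all 39 were lower (background 62.4%). At least 2-fold lower were 14 of them, against 24.7% of all 797 loci and 197 of the 497 lower ones. The 39 loci had a median log2 ratio of -0.92, against -0.93 for the 497 lower loci and -0.80 for all 797 loci. These genes were thus not lower by more than other lower loci. The 39 loci had a median GC content of 42.1%, in the second GC bin, where 87.9% of listed loci were lower. Without the 9 regulators, 30 of 162 genes were listed, all lower, with a median of -0.92. Their median GC content was 41.8%, a value that 2 of them lacked. The part of GC content in these counts was not tested.

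Around the G1 switch, 5 of the 22 genes in the G1 lists were listed, beside 25 of the 106 genes in the mitotic lists. Of 12 G1 cyclins, kinases and E2F activators, 3 were listed, CDK6, CDK2 and CDC25A, the phosphatase that activates CDK2, at 6.50 FPKM in Scr and 3.39 FPKM in shMyb (log2 ratio -0.85). None of 8 cyclins of the D, E, A2 and B types was listed, so the partners of CDK6, CDK2 and CDK1 were not analysed here. Of 10 CDK inhibitors and pocket proteins, CDKN1A and RBL1 were the 2 listed. RBL1 works in the DREAM complex, and 2 of 12 repressor E2F and DREAM or MuvB genes were listed, the repressor E2F8 (4.53 FPKM in Scr and 1.84 FPKM in shMyb, the order kept below, log2 ratio -1.11) and the MuvB subunit LIN9 (12.8 and 5.73 FPKM, log2 ratio -1.09). Of 10 genes of SCF and CDK inhibitor turnover, 2 were listed. DTL, which directs CDKN1A to degradation, was at 24.3 FPKM in Scr and 11.6 FPKM in shMyb (log2 ratio -1.04), and the SCF subunit SKP1 was at 203 and 107 FPKM (log2 ratio -0.93). CDKN1A and the factor that directs its destruction were thus both lower in RNA.

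Beside GADD45A, 4 of the 21 stress and checkpoint genes were listed. SFN (14-3-3 sigma), which keeps CDK1 out of the nucleus, was at 3.55 FPKM in Scr and 1.02 FPKM in shMyb, a log2 ratio of -1.42 with 28.6% of the Scr level left, against 37.6% for GADD45A. MDM2, the ubiquitin ligase for p53, stood at 19.8 FPKM in Scr and 8.62 FPKM in shMyb (log2 ratio -1.15). The antiproliferative gene BTG2 stood at 15.3 and 7.33 FPKM (log2 ratio -1.02). The checkpoint kinase CHEK1 stood at 31.3 and 17.9 FPKM (log2 ratio -0.79). The list's 5 loci, GADD45A included, had a median of -1.15. At least 2-fold lower were 4 of them, against 24.7% of all loci above the level filter and 197 of the 497 lower ones.

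Of 106 genes in 5 mitotic lists (mitotic entry, spindle, APC/C, kinetochore with checkpoint, and condensin with cohesin), 25 were listed and all 25 were lower (background 62.4%). Of these, 4 were at least 2-fold lower, a smaller share than the 24.7% of all 797 loci. The 25 genes had a median GC content of 40.2%, a value that 2 of them lacked. That median falls in the lowest GC bin, where 92.7% of listed loci were lower. The part of GC content in the count of lower genes was not tested. Their ratios ran from -1.11 to -0.71 with a median of -0.90. No lower locus above the level filter was nearer to 0 than -0.71, so the list itself bounds this range on that side. Beside CDK1, the kinase PLK1 was at 87.9 FPKM in Scr and 50.7 FPKM in shMyb (log2 ratio -0.79), and the CDK-binding subunit CKS1B at 120 and 66.5 FPKM (log2 ratio -0.85). Beside KIF11 and HMMR, 5 of the 25 spindle genes were listed, the kinesins KIF18A (log2 ratio -1.02), KIF20B (-0.98), KIF4A (-0.90) and KIF23 (-0.86) and the kinetochore motor CENPE (-0.74). KIF11 thus lay between KIF20B and KIF4A. Beside UBE2C, 1 of the 20 APC/C genes was listed, the APC/C inhibitor FBXO5, at 31.0 and 15.0 FPKM (log2 ratio -1.02), so that a helper and an inhibitor of the complex were both lower. At the kinetochore, ZWINT (-1.11), SGOL2 (-1.05), NDC80 (-0.92), SPC25 (-0.92) and KNTC1 (-0.80) were the 5 of 29 listed. Of 18 condensin and cohesin genes, 8 were listed, with a median of -0.82. SMC4, the condensin ATPase, was the most strongly expressed of them, at 158 FPKM in Scr and 83.2 FPKM in shMyb (log2 ratio -0.92). The others were NCAPG (-0.996), the cohesin protector CDCA5 (-0.995), NCAPH (-0.86), NCAPG2 (-0.78), SMC2 (-0.75), STAG1 (-0.74) and the cohesin release factor WAPAL (-0.71).

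**Figure D5:**
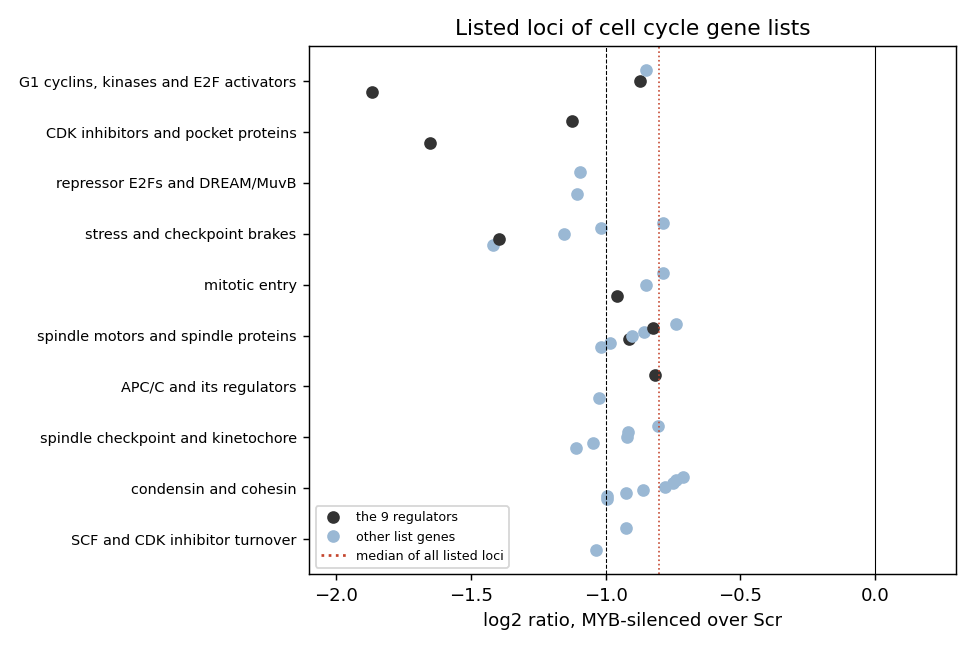
Log2 ratio of shMyb over Scr for the listed loci of 10 cell cycle gene lists, with the 9 regulators dark and other list genes light; the dashed line marks 2-fold lower and the dotted line the median of all listed loci (-0.80). All 39 loci are below 0, with CDK6 and CDKN1A far to the left of the mitotic lists.

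The motifs of CDK1, KIF11 and HMMR were also counted in these lists. RefSeq promoters were matched for 21 of the 25 listed mitotic genes. Without CDK1, KIF11 and HMMR, whose matches prompted the count, 18 genes with 22 promoters were left, of which 16 held a CHR, 12 a CCAAT box, 10 both and 10 a MYB site. Of 93 promoters of 68 mitotic list genes without a listed locus, 37 held a CHR, 53 a CCAAT box, 27 both and 56 a MYB site. As shares, a CHR was in 72.7% of the listed and 39.8% of the other promoters, a CCAAT box in 54.5% and 57.0%, and a MYB site in 45.5% and 60.2%. Listed and other genes also differ in make-up, since 2 of 20 APC/C genes were listed against 8 of 18 condensin and cohesin genes. The part of make-up in the shares was not tested. Among 558 promoters of lower listed loci of any function, 17.2% held a CHR, close to the 16.4% of all promoters, and 9.14% held an E2F site, against 3.31% of all promoters. Among 304 promoters of higher loci the shares were 8.22% for a CHR and 1.64% for an E2F site. These shares are descriptions. They were not corrected for the base composition of promoters, which was not measured. The GC content of transcripts differed, with medians of 44.5% for lower and 60.6% for higher loci.

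The locus nearest to each regulator in both FPKM values was found among listed single-gene loci above 0 in both libraries, over 2 libraries and as a distance on the log2 scale. LIN9 was nearest to RBL1 (distance 0.0240) and KIF4A to CDK2 (0.0526). The nearest to CDK6 was the semaphorin SEMA3C (0.0208) and to CDKN1A C15orf48 (0.129). GADD45A was nearest to NPIP, CDK1 to BNIP3L, KIF11 to CD109, HMMR to GSPT1 and UBE2C to HNRNPD, at distances of 0.0444 to 0.0914. With 2 libraries such a match is a matter of 2 values.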

How the data were processed

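The deposited table holds FPKM of 1 Scr and 1 shMyb library, made by the authors, with a signed fold score, a log2 ratio without pseudocount and an unadjusted p-value deposited beside them. The build hg19, TopHat with Bowtie, Cufflinks and CASAVA 1.8.2 stand per the submitters' processing notes. For their roles, the annotation, the strand setting and scaling between libraries, nothing is given in the sources used here. Depth is unknown, so no interval or floor was computed. Log2 ratios were computed with a pseudocount of 0.5 FPKM, which understates low genes. Counts used loci whose mean reached 1 FPKM. Coordinates are the table's, with the start raised by 1. Motifs, chosen after the ratios were known, were matched in RefSeq promoters (GRCh38.p14). Named genes are the 9 regulators, MYB, all listed loci of the 10 lists, the listed marker DES and each regulator's nearest locus. The further genes under other observations were added after their values were seen. The members and lists were chosen with earlier results of these data known. Ratios, counts and motif matching were tested on simulated data. Python 3.11.15, pandas 2.3.3, numpy 2.4.6 and matplotlib 3.10.9 were used. Alternatives were pseudocounts, level filters, fold rules and centring.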

Additional observations from a re-analysis of the deposited data

How the results depend on the processing

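No paired analysis was possible because each group has 1 library, and for the same reason no library could be left out. With pseudocounts of 0.1 and 1 FPKM, and with none, all 9 log2 ratios stayed negative and within 1.5 times their reported size, from -1.96 to -0.81. Centring on the median of the listed loci kept all 9 below 0 but made each smaller by over 1.5 times, by construction. The medians were then -0.092 for the drivers, -0.59 for the brakes, -0.59 for the G1 genes and -0.067 for the mitotic genes. A median over genes listed for their difference is no estimate of unchanged genes. The 197 lower and 159 higher loci at 2-fold became 31 and 300 when centred, 497 and 300 at 1.5-fold, and 48 and 35 at 3-fold, and stayed within 1.5 times under both other pseudocounts, no level filter and a mean of at least 5 FPKM. The 1.5-fold counts are all the lower and all the higher loci above the level filter, so that rule excluded none of them. Depth is unknown, so CDKN1A, at 2.33 FPKM in shMyb, has the least certain ratio of the 9 as far as level shows.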

Other observations

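The cell division genes that follow were chosen after their values were seen, and 62.4% of all loci above the level filter were lower. Beside the 5 mitotic kinesins of the gene lists whose names begin with KIF, all lower, 2 more loci with such names were listed, both higher. KIF1A, a neuronal cargo motor, was at 11.4 FPKM in Scr and 22.4 FPKM in shMyb (log2 ratio 0.94). KIFC2 stood at 4.84 and 9.51 FPKM (log2 ratio 0.91). The GC content of the 2 higher kinesins was 61.0% and 67.6%, and that of the 5 lower ones was at most 47.8%. The part of GC content in this was not tested. The origin kinase CDC7 was lower (13.9 and 7.59 FPKM, log2 ratio -0.84), as was the licensing factor CDC6 (log2 ratio -1.07). CCNF, a cyclin that serves as an F-box protein and does not activate a CDK, was the 1 listed locus whose name begins with CCN, at 15.6 and 8.13 FPKM (log2 ratio -0.90).

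Against a range of -0.96 to -0.82 for the log2 ratios of CDK1, KIF11, HMMR and UBE2C, 4 further genes of cell division lay outside it on either side. The cleavage furrow scaffold ANLN stood at 97.4 FPKM in Scr and 46.8 FPKM in shMyb (log2 ratio -1.05). The abscission factor CEP55 stood at 69.8 and 40.6 FPKM (log2 ratio -0.77). The lamin LMNB1 stood at 108 and 52.5 FPKM (log2 ratio -1.04). The centrosome scaffold PCNT stood at 11.7 and 6.84 FPKM (log2 ratio -0.74). The neuronal tubulin TUBB3 was higher, at 82.0 and 169.9 FPKM (log2 ratio 1.05), with a GC content of 62.4%.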
